A study of Homo sapiens with 12 samples.

Results

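The GIMAP genes, a family of GTPases of lymphocytes, were followed through glucocorticoid treatment of CCRF-CEM-C7H2, a glucocorticoid-sensitive cell line derived from a human T-cell acute lymphoblastic leukemia. The members were taken by name: every probe set whose platform annotation gives GIMAP1, GIMAP2, GIMAP4, GIMAP5, GIMAP6, GIMAP7 or GIMAP8 as its only gene symbol, so 7 of the 19775 genes with such a probe set, with 13 probe sets. RNA was hybridized to Affymetrix HG-U133 Plus 2.0 arrays, whose probe sets each report 1 or more transcripts. The 4 groups were cells given 100 nM dexamethasone, a synthetic glucocorticoid, for 6 h or for 24 h, and cells given 0.1% ethanol, the carrier, for 6 h or for 24 h. Each group held 3 arrays from independent experiments, numbered 0, 1 and 3 for the 6 h arrays and 1, 2 and 3 for the 24 h arrays. All cells were of 1 line, so the spread between arrays is that between experiments on that line. Values are log2 expression on the deposited scale, and a difference of 1 on it is a doubling.

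GIMAP proteins bind GTP through a domain that they share with plant immune proteins, and they are found mostly in lymphocytes, where several are needed for the cells to survive. Loss of GIMAP5 in rats and mice depletes T cells, and the protein sits on lysosomes. Loss of GIMAP1 in mice removes mature T and B cells. GIMAP2 forms chains on lipid droplets, and GIMAP7 can stimulate the hydrolysis of GTP by GIMAP2. GIMAP6 has been tied to autophagy, GIMAP4 to the tempo of T-cell death, and GIMAP8 is the member with several GTP-binding domains in 1 protein. In humans the genes lie next to each other on chromosome 7. Glucocorticoids act through a receptor that binds DNA and kill many lymphoid leukemia cells.

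The promoters are shown first, because GIMAP7, GIMAP2 and GIMAP1 share a run of letters there. GIMAP6, the member with the highest signal on the arrays, lacks it. RefSeq sequence of GRCh38.p14 was matched for 7 of 7 members, in windows from 250 bases before to 50 after each transcription start. Among all pairs of members the longest shared run was sought with the expression values already known. A run of 14 bases occurred in the windows of GIMAP7, GIMAP2 and GIMAP1, and is in capitals in the lines that follow. In GIMAP2 it lies on the opposite strand.
GIMAP7 (chr7:150514622-150514921, + strand): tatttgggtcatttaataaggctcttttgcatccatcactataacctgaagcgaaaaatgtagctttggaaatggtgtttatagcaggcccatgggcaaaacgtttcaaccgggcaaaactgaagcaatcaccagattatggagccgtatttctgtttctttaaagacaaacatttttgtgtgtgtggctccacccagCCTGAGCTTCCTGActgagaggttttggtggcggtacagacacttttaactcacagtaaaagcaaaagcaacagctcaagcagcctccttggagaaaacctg
GIMAP2 (chr7:150685456-150685755, + strand): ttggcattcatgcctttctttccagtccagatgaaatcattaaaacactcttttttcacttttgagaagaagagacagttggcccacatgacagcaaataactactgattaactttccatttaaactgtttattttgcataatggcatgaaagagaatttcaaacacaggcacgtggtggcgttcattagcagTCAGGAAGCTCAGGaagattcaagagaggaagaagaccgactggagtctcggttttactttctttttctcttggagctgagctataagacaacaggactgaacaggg
GIMAP1 (chr7:150716363-150716662, + strand): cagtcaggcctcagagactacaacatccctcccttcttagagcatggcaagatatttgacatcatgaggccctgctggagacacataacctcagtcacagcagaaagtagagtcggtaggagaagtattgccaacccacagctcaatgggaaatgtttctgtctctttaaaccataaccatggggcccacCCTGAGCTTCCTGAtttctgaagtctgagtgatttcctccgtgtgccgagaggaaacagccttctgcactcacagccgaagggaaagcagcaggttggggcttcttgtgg
The run CCTGAGCTTCCTGA began at position -52 in GIMAP7 and -60 in GIMAP1, counted from the start. In GIMAP2 the window reads TCAGGAAGCTCAGG from position -57. With both strands searched, 4 of 35116 promoter windows (0.0114%) held it, and the 4th is that of the read-through transcript GIMAP1-GIMAP5, which starts where GIMAP1 starts. GIMAP2 and GIMAP7 shared 17 bases there, held by these 2 windows alone (0.0057%). Both runs were picked because members share them, so these shares of windows are a description and carry no test. No factor is named for the run of 14 bases.

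The half-site of the glucocorticoid receptor, AGAACA on either strand, was present in the windows of GIMAP4 and GIMAP8 and in no other member. It occurred in 14.8% of all windows. The 40 bases around it are given because both genes were without signal on the arrays, with the half-site in capitals.
GIMAP4 (chr7:150567239-150567278, + strand): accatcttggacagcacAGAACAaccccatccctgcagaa
GIMAP8 (chr7:150450384-150450423, + strand): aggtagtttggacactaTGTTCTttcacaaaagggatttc
The full palindrome (AGAACA, 3 bases of any kind, TGTTCT) was in no member's window and in 1 window of all 35116. Of elements of lymphoid factors, the ETS letters GGAAGT were found in 4 members (GIMAP4, GIMAP5, GIMAP6 and GIMAP8) and in 22.8% of all windows. The CACCC box of Kruppel-like factors was found in 4 members (GIMAP1, GIMAP4, GIMAP5 and GIMAP7) and in 59.9% of windows, and it overlaps the start of the shared run in GIMAP1 and lies just before that run in GIMAP7. The FOXO letters GTAAACA (3.42% of windows) and the RUNX letters TGTGGT (13.1%) were in no member. All elements were searched on both strands, and a match is a run of letters, not a site of binding.

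Of the 13 member probe sets, 6 were tested, since they reached a log2 of 4 on 3 or more arrays, and they belong to 4 genes: GIMAP1, GIMAP2, GIMAP6 and GIMAP7. That level was reached by 22503 to 22941 probe sets on an array (41.2 to 42.01%), which stands here for depth. The cells carried T-lineage RNA: 10 of 12 T-lineage markers reached the level in at least 3 arrays, and CD2 and CD28 did not. None of 5 myeloid and none of 2 erythroid markers reached it, against 2 of 5 B-cell, 2 of 5 NK-cell and 1 of 5 endothelial markers. At 24 h the summed linear level of the T-lineage list was 34070 to 36600 with dexamethasone and 29170 to 30990 with ethanol. In the same order the B-cell list gave 3383 to 3733 and 1197 to 1368, and the NK list 416.1 to 461.6 and 183.5 to 217.2. The endothelial list gave 316.3 to 357.4 and 414 to 428.5. The B-cell marker CD79A differed by 1.55 ± 0.18 (SE) at 24 h and CD79B by 0.255 ± 0.17. The NK marker KLRD1 differed by 4.08 ± 0.23, with a mean of only 3.05 over all arrays and a minimum of 2.01. It reached a log2 of 4 only on the 24 h dexamethasone arrays, so the difference is taken against background. The part of these lists in any GIMAP value was not tested. By codes in the array names, the 6 h dexamethasone arrays, the 6 h ethanol arrays and all 24 h arrays form 3 batches, so at 6 h batch and treatment cannot be told apart, while the 24 h arrays share 1 batch. Dexamethasone arrays also had brighter poly-A spike controls (24 probe sets, 0.47 higher on average at 6 h and 0.34 higher at 24 h) and brighter hybridization controls (18 probe sets, 0.34 and 0.38 higher).

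GIMAP2, the lipid-droplet GTPase, was lower with dexamethasone in each of the same-numbered experiments at both times. At 24 h probe set 232024_at read 9.73, 9.70 and 9.21 in experiments 1, 2 and 3 with dexamethasone, against 9.995, 10.10 and 9.78 with ethanol. The highest dexamethasone array thus lay below the lowest ethanol array. GIMAP2 averaged 9.55 ± 0.29 with dexamethasone and 9.96 ± 0.16 with ethanol at 24 h (SD, n = 3 each), a log2 difference of -0.41 ± 0.18 (SE) and a 0.753-fold level. limma's adjusted p was 0.0890 without a term for the experiment, and 0.00691 (SE 0.0882) with the experiment as a block, so the call at 0.05 rests on the pairing. In the block fit it was 0.0545 without experiment 3, with a difference of -0.33, 0.0137 without experiment 1 and 0.0299 without experiment 2. On bulk RNA, fewer cells with a transcript and less of it per cell cannot be told apart.

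At 6 h GIMAP2 read 9.73, 9.97 and 9.34 in experiments 0, 1 and 3 with dexamethasone, against 10.01, 10.01 and 9.70 with ethanol. These groups overlapped, though each dexamethasone array was below its own ethanol array, with a difference of -0.05 in experiment 1 and of -0.28 and -0.36 in experiments 0 and 3. The mean difference was -0.23 ± 0.18, which did not pass the test (limma adjusted p = 0.537, and 0.139 with the block).

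GIMAP7, the partner that stimulates GIMAP2's GTPase activity, varied more between experiments than between treatments. At 24 h probe set 228071_at read 7.24, 7.25 and 5.80 in experiments 1, 2 and 3 with dexamethasone, against 7.47, 7.52 and 6.37 with ethanol. All 3 dexamethasone arrays lay below the ethanol array of their own experiment, with differences of -0.23, -0.27 and -0.57, while the groups as a whole overlapped. GIMAP7 averaged 6.76 ± 0.84 with dexamethasone and 7.12 ± 0.65 with ethanol (SD, n = 3 each). The difference of -0.36 ± 0.55 did not pass limma's test (adjusted p = 0.625), with a 95% interval for the level from 0.338-fold to 1.8-fold. With the experiment as a block the same difference had an SE of 0.0965, an interval from 0.665-fold to 0.916-fold and an adjusted p of 0.0177. Left without experiment 3 the block fit gave -0.25 with an adjusted p of 0.0600. Left without experiment 1 it gave an adjusted p of 0.0462, and without experiment 2 of 0.0411.

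At 6 h GIMAP7 read 7.76, 7.28 and 6.08 in experiments 0, 1 and 3 with dexamethasone, against 7.76, 7.23 and 6.36 with ethanol. The values with and without dexamethasone were nearly equal in experiments 0 and 1 and lower with dexamethasone in experiment 3. The difference was -0.07 ± 0.55 (limma adjusted p = 0.966, and 0.660 with the block).

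**Figure D1:**
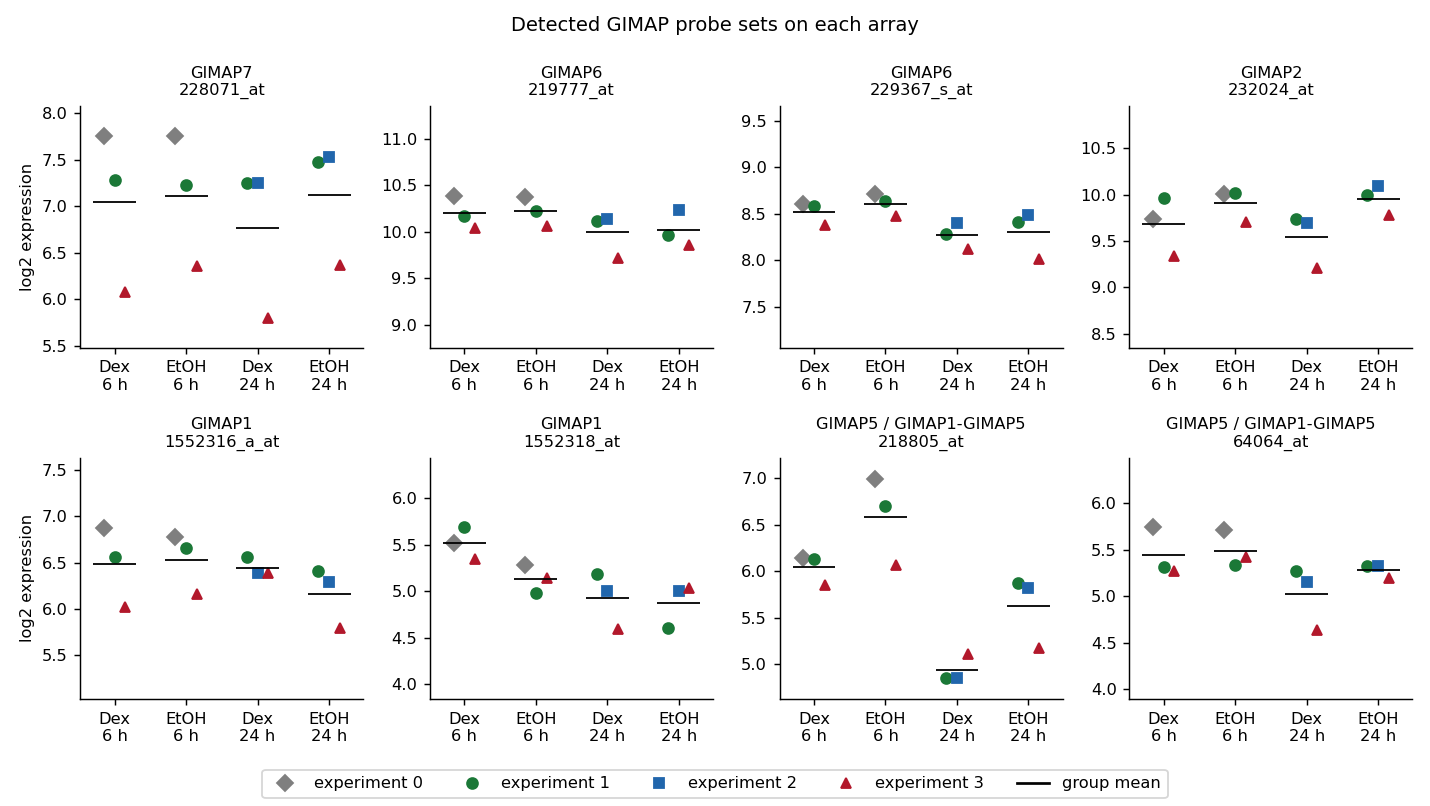
Log2 expression of the 8 probe sets of the GIMAP region that were tested, 1 panel each, with 1 point per array and a line at the mean of each group of 3 arrays; symbols mark the experiment, and each panel has its own vertical range of equal span. The 4 arrays of experiment 3 sit between 5.80 and 6.37 in the GIMAP7 panel, below the other 8 at 7.23 to 7.76, and the 3 GIMAP2 arrays with dexamethasone at 24 h all lie below the ethanol arrays of that time.

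GIMAP6, the member tied to autophagy, showed no difference past the test at either time, and its intervals were among the narrower ones. At 24 h probe set 219777_at read 10.11, 10.14 and 9.72 with dexamethasone, against 9.97, 10.23 and 9.86 with ethanol in experiments 1, 2 and 3. At 6 h it read 10.39, 10.17 and 10.04 with dexamethasone, against 10.37, 10.23 and 10.06 with ethanol in experiments 0, 1 and 3. The treated and control values interleaved at both times. The differences were -0.03 ± 0.15 at 24 h (adjusted p = 0.893) and -0.02 ± 0.15 at 6 h (adjusted p = 0.962) by limma, with 95% intervals of 0.785-fold to 1.23-fold and 0.788-fold to 1.23-fold. The other GIMAP6 probe set, 229367_s_at, read 8.28, 8.40 and 8.12 with dexamethasone at 24 h, against 8.41, 8.48 and 8.01 with ethanol. Its groups overlapped as well, and its difference at 24 h was -0.03 ± 0.13 (adjusted p = 0.865). At 6 h it was -0.09 ± 0.13 (adjusted p = 0.782). These intervals bound the size of a change in GIMAP6 and do not show that there was none.

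GIMAP1, needed for mature lymphocytes in mice, was read by 2 tested probe sets that behaved differently. Probe set 1552316_a_at read 6.56, 6.39 and 6.39 with dexamethasone at 24 h, against 6.41, 6.29 and 5.79 with ethanol. Each dexamethasone array was above the ethanol array of its experiment, by 0.0919 to 0.59, but the groups overlapped. The difference of 0.28 ± 0.23 did not pass limma's test (adjusted p = 0.347, and 0.0629 with the block), and at 6 h it was -0.05 ± 0.23 (adjusted p = 0.948). At 6 h probe set 1552318_at read 5.52, 5.69 and 5.35 with dexamethasone, against 5.29, 4.98 and 5.14 with ethanol. Here the 3 treated arrays all lay above the 3 controls, with a difference of 0.39 ± 0.17, an unadjusted p of 0.0431 and an adjusted p of 0.228 in limma's fit. At 24 h this probe set read 5.19, 5.00 and 4.59 with dexamethasone, against 4.603, 5.00 and 5.03 with ethanol, and its sign differed from experiment to experiment. That difference was 0.05 ± 0.17 (adjusted p = 0.832). After their group means were taken off, both GIMAP1 probe sets correlated at r = 0.078 over the 12 arrays, against 0.835 for the GIMAP6 pair. The remaining 3 GIMAP1 probe sets stayed below 4 on all arrays.

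GIMAP5, the lysosomal member whose loss depletes T cells in rodents, had 1 probe set of its own, 215353_at, and it stayed below 4 on all 12 arrays. A further 3 probe sets are annotated to both GIMAP5 and the read-through locus GIMAP1-GIMAP5, which joins it to GIMAP1, and they are kept apart from the members because the annotation does not say which transcript they read. Of these, 218805_at read 4.86, 4.85 and 5.11 with dexamethasone at 24 h in experiments 1, 2 and 3, against 5.88, 5.82 and 5.17 with ethanol. The groups did not overlap, but the difference was -0.07 in experiment 3, against -1.02 and -0.96 in experiments 1 and 2. The difference was -0.68 ± 0.24, a 0.623-fold level, and passed the test (limma adjusted p = 0.0345, and 0.0261 with the block). The call was kept in 8 of 12 fits that left out 1 array, but leaving out a 6 h array cannot change this difference. Among fits without a 24 h array it was kept only without the ethanol (limma adjusted p = 0.00954) or dexamethasone (0.0475) array of experiment 3. It was lost without the ethanol array of experiment 1 (adjusted p = 0.121) or 2 (0.113), without the dexamethasone array of experiment 1 (0.0920) or 2 (0.0879), and where no filter on low values was set (0.102). In the block fit the difference was -0.51 without experiment 1 (adjusted p = 0.178) and -0.54 without experiment 2 (0.128), which ended the call, and -0.99 without experiment 3 (0.00348).

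At 6 h 218805_at read 6.14, 6.13 and 5.85 with dexamethasone, against 6.996, 6.70 and 6.07 with ethanol. It was lower in all 3 experiments, with differences of -0.85, -0.57 and -0.21 in experiments 0, 1 and 3 and groups that just overlapped, and the difference of -0.55 ± 0.24 did not pass limma's test (adjusted p = 0.226, and 0.130 with the block). Without experiment 3 it was -0.71 and passed (adjusted p = 0.0420, and 0.0603 with the block). The second of these probe sets, 64064_at, read 5.28, 5.15 and 4.64 with dexamethasone at 24 h, against 5.32, 5.32 and 5.19 with ethanol. Its experiments ran in 1 direction but its difference was -0.26 ± 0.18 (adjusted p = 0.258, and 0.0693 with the block), so the fall was called on 1 of the 2 tested probe sets. At 6 h 64064_at differed by -0.04 ± 0.18 (adjusted p = 0.930). Under spike scaling 218805_at was also called lower at 6 h (-1.01, adjusted p = 0.00616), and 64064_at at both times (-0.51 at 6 h and -0.60 at 24 h, adjusted p = 0.0463 and 0.0294). The last, 215352_at, reached 2.49 at most.

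GIMAP4 and GIMAP8 gave no signal above the level set for testing. The probe set of GIMAP4, 219243_at, lay between 1.98 and 2.04 over all 12 arrays. Those of GIMAP8 lay between 2.49 and 2.601 (235306_at) and between 1.87 and 1.91 (240646_at). With GIMAP5's own probe set and 3 of GIMAP1, 7 member probe sets stayed between 1.87 and 3.94 on all arrays, and no fold is given for them. Whether these transcripts were absent or their probes read them poorly was not tested.

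Taken over the 6 tested probe sets of single members, none passed limma's test for dexamethasone in either direction without the block. At 24 h the count was 0 of 6 (1 of 6 at an unadjusted p under 0.05, and 2 of 6, both lower, with the block), while 47.3% of all 23265 tested probe sets passed. With the block 28.7% of all tested probe sets were called lower at 24 h, so 2 of 6 is near that share. The members' median difference at 24 h was -0.03, against -0.01 over all tested probe sets, whose median size without sign was 0.32. At 6 h the count was 0 of 6 (1 at an unadjusted p under 0.05, none with the block), while 6.2% of all passed, and the median was -0.06 against -0.01 over all. Scaling the arrays to the poly-A spikes moved these counts. On that scale GIMAP2 was called lower at 24 h, at -0.75 (limma adjusted p = 0.00443), 1 of 6 against 43.3% of all probe sets called lower. At 6 h GIMAP2 (-0.70, adjusted p = 0.00840) and both GIMAP6 probe sets (-0.49 and -0.55, adjusted p = 0.0277 and 0.0186) were called lower, 3 of 6 against 65% of all.

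**Figure D2:**
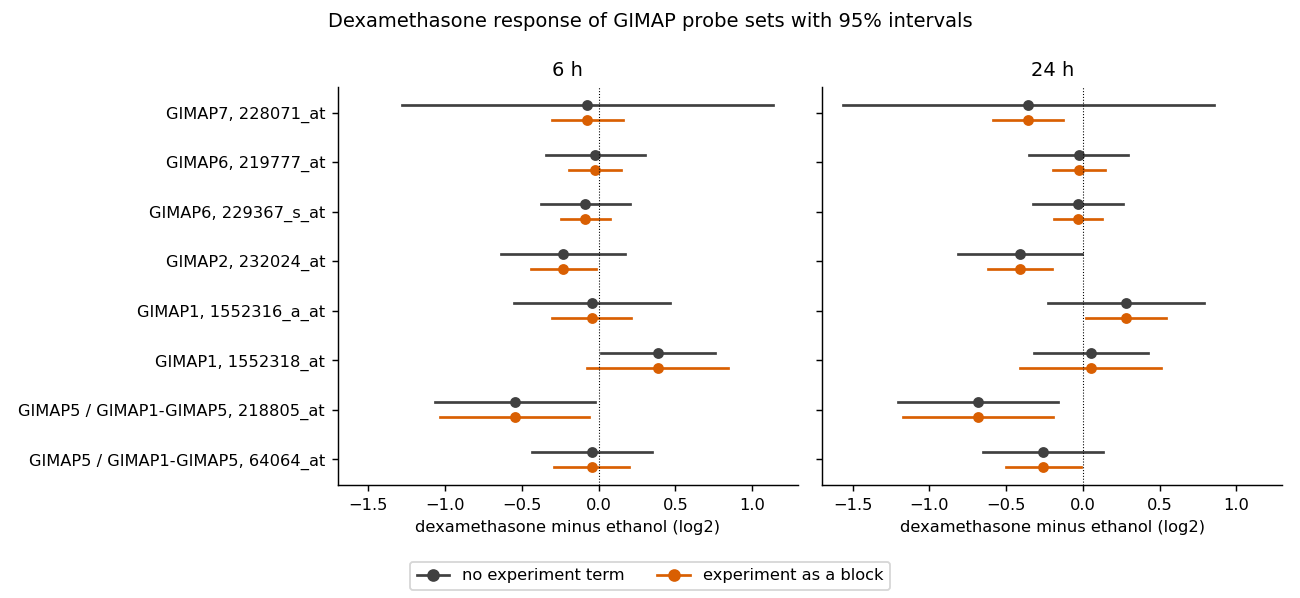
Dexamethasone minus ethanol on the log2 scale for the 8 tested probe sets of the region, at 6 h (left panel) and 24 h (right panel); points are limma's differences and bars their 95% intervals, without a term for the experiment (grey) and with the experiment as a block (orange). The GIMAP7 interval at 24 h runs from -1.57 to 0.85 without the term and from -0.59 to -0.13 with it.

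GIMAP7 was low in experiment 3 with and without dexamethasone. It read 5.80 to 6.37 there, and in the other 8 arrays 7.23 to 7.76, so the sets of arrays do not overlap. Experiment 3 minus the others came to -1.29 at 6 h and -1.29 at 24 h, with both treatments averaged. Only 70 of the 23265 tested probe sets (0.301%) had all 4 arrays of experiment 3 below the other 8. Whether the number 3 marks the same culture at 6 h and at 24 h was not tested. An F test of the experiment within each time, added after the values were seen, called GIMAP7 (limma adjusted p = 0.0125) among 3.77% of all tested probe sets. It did not call the other 5 member probe sets or the 2 of GIMAP5 and the read-through (adjusted p of 0.0763 to 0.910).

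With both treatments averaged, all 8 of these probe sets were lower in experiment 3 at both times, while the median over all tested probe sets was 0.00 at 6 h and 0.03 at 24 h. Single groups departed from this: in ethanol at 24 h GIMAP1 1552318_at was highest in experiment 3 (5.03), and with dexamethasone at 24 h so was 218805_at (5.11). For GIMAP2 experiment 3 minus the others was -0.41 at 6 h and -0.39 at 24 h, and for 219777_at of GIMAP6 it was -0.24 and -0.33. Over all tested probe sets 3.06% at 6 h and 1.96% at 24 h were as low as or lower than GIMAP2 in this respect, and 0.189% and 0.133% were as low as GIMAP7. For the other 6 probe sets this share ran from 1.12% (GIMAP1 1552316_a_at) to 22.3% (GIMAP1 1552318_at) at 6 h, and from 2.45% (64064_at) to 12.8% (GIMAP1 1552318_at) at 24 h. After group means were taken off, GIMAP7 correlated over the 12 arrays with GIMAP6 219777_at at r = 0.914, with GIMAP2 at 0.892, with GIMAP6 229367_s_at at 0.888 and with GIMAP1 1552316_a_at at 0.86. The remaining values were 0.807 for 64064_at, 0.6 for 218805_at and 0.437 for GIMAP1 1552318_at. These points share experiments and arrays, and the values are a description of them. In experiment 3 the 24 h differences of GIMAP2 (-0.57) and GIMAP7 (-0.57) were also wider than in experiments 1 and 2.

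**Figure D3:**
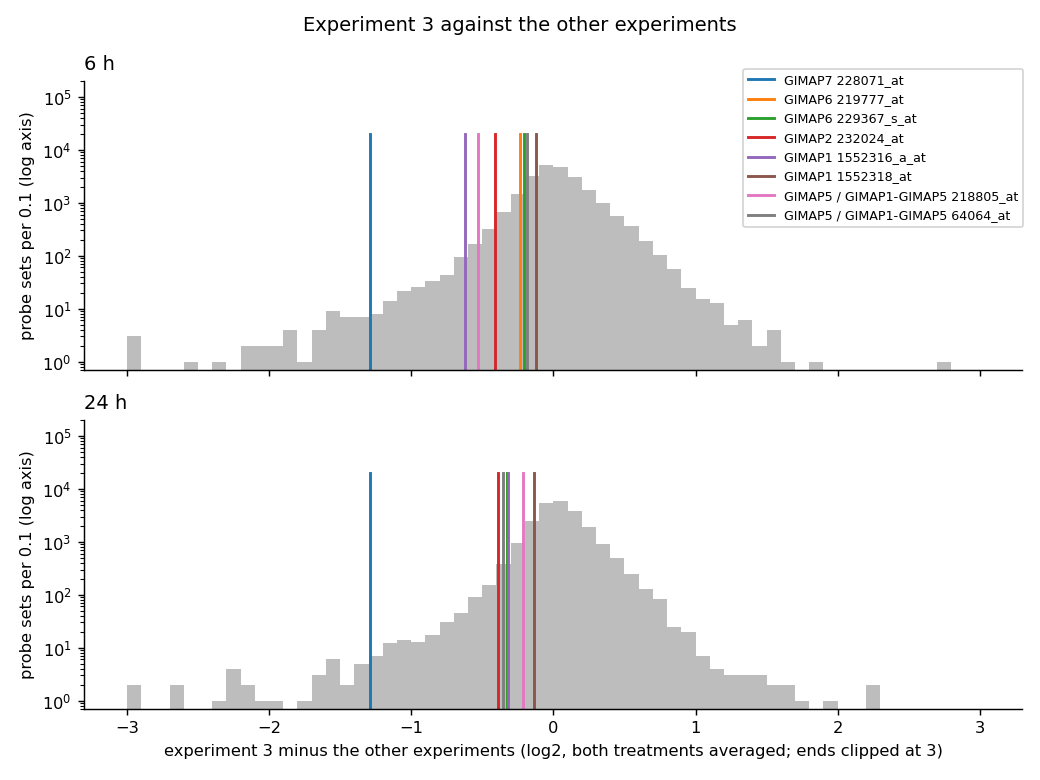
Experiment 3 minus the mean of the other experiments of the same time (log2, both treatments averaged, horizontal axis, with values beyond 3 placed in the end bins) against the number of tested probe sets per bin of 0.1 (log axis), at 6 h (top) and 24 h (bottom); grey bars are all 23265 tested probe sets and coloured lines the 8 of the GIMAP region. All 8 lines lie left of 0, and the GIMAP7 line at -1.29 lies in the thin left tail at both times.

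The response to dexamethasone was not shown to differ between the times for any member. The 24 h response minus the 6 h response ranged from -0.34 (GIMAP1 1552318_at) to 0.33 (GIMAP1 1552316_a_at), and limma called 0 of 6 (none at an unadjusted p under 0.05, none with the block), against 23.1% of all tested probe sets. For GIMAP2 this difference was -0.18 ± 0.26 (adjusted p = 0.669). For GIMAP7 it was -0.28 ± 0.77 (adjusted p = 0.833). Between the controls, ethanol at 24 h minus ethanol at 6 h, limma called 0 of 6 (1 at an unadjusted p under 0.05), against 0.486% of all. The one at an unadjusted p under 0.05 was 229367_s_at of GIMAP6, at -0.31 ± 0.13 (adjusted p = 0.296). The widest shift between the controls in the region was that of 218805_at, the probe set of GIMAP5 and the read-through, with 5.88, 5.82 and 5.17 in ethanol at 24 h and 6.996, 6.70 and 6.07 in ethanol at 6 h. Those groups did not overlap, and the difference of -0.97 ± 0.24 did not pass the test (adjusted p = 0.103). The comparison between times also crosses the batches, and it takes different experiments (0 at 6 h, 2 at 24 h) into each side. It has no block fit, since experiments were nested within time.

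On both sides of the GIMAP cluster some genes passed the test at 24 h. Among the tested neighbours together, the share called was near that over all genes. With 1 probe set per gene, limma called 52% of 9947 genes at 24 h and 6.49% at 6 h. Of 23 neighbours listed from chromosome 7, 13 were tested, and at 24 h 4 rose and 3 fell, with a median of -0.03 against -0.02 over all genes. ATP6V0E2, a subunit of the proton pump, rose by 1.36 ± 0.09 (adjusted p = 8.34e-07), and ZNF862, a zinc finger gene, by 1.55 ± 0.22 (adjusted p = 0.000168). KCNH2, a potassium channel gene and the nearest tested gene beyond GIMAP5, fell by 1.84 ± 0.16 (adjusted p = 6.18e-06), and NOS3, the endothelial nitric oxide synthase, fell by 1.91 ± 0.37 (adjusted p = 0.00163). ZNF775, the nearest tested gene before GIMAP8, differed by -0.02 ± 0.12 (adjusted p = 0.902). TMEM176A, TMEM176B and AOC1, between GIMAP5 and KCNH2, had no tested probe set. At 6 h 1 of the 13 rose and none fell (2 and none with the block). It was ATP6V0E2, at 0.66 ± 0.09 (adjusted p = 0.00185), and CDK5, a kinase gene, had 0.33 ± 0.10 (adjusted p = 0.0704, and 0.0174 with the block).

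Genes known to mark quiescent T cells and to favour their survival, the setting in which GIMAP genes are usually high, were given as a list beside the members. Of 22 listed, 16 were tested, and at 24 h 12 rose and 1 fell, with a median of 0.99 (52% of all genes called). IL7R, the interleukin-7 receptor, rose by 5.89 ± 0.39, PIK3IP1, an inhibitor of PI3-kinase, by 5.54 ± 0.32, BTG1, an antiproliferative gene, by 3.65 ± 0.22, and TXNIP, which restrains glucose uptake, by 2.48 ± 0.15 (limma adjusted p of 7.31e-07, 2.77e-07, 3.57e-07 and 3.98e-07). At 6 h 7 rose and 1 fell, with a median of 0.42 (6.49% of all genes called), among them BTG1 at 2.84 ± 0.22 and PIK3IP1 at 3.77 ± 0.32 (adjusted p of 2.97e-05 and 6.01e-05). No tested GIMAP probe set was called higher at 24 h. The highest GIMAP difference was the 0.28 of GIMAP1 1552316_a_at. It was positive in each experiment but did not pass (limma adjusted p = 0.347, and 0.0629 with the block).

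Several GIMAP proteins have been reported to bind members of the BCL2 family, which set the threshold of mitochondrial cell death. Of 10 such genes listed, 9 were tested, and at 24 h 2 rose and 4 fell, with a median of -0.11 (52% of all genes called). BCL2L11, the death-inducing BIM, rose by 3.61 ± 0.12, and MCL1, a protector, by 0.62 ± 0.09. BCL2L1, which encodes the protector BCL-XL, fell by 0.58 ± 0.08, and BIK, a death inducer, fell by 1.08 ± 0.18 (limma adjusted p of 6.93e-09, 0.000179, 0.000109 and 0.000475 in that order). At 6 h 1 rose and 1 fell (2 and 2 with the block, and 6.49% of all genes called without it): BCL2L11 at 1.82 ± 0.12 and PMAIP1, a death inducer, at -0.65 ± 0.11 (adjusted p of 1.03e-05 and 0.00557). GIMAP2 and GIMAP7 differed by -0.41 and -0.36 on the same arrays at 24 h. Their limma adjusted p was 0.0890 and 0.625, and 0.00691 and 0.0177 with the block. A link between these differences and the BCL2 family was not tested.

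The pattern of GIMAP6 219777_at, the tested member probe set with the highest mean signal, was set against 1 probe set of each of 9943 other genes over the 12 arrays. CD83, an activation marker of immune cells, followed it most closely, at Pearson's r = 0.913. ARAP2, a GTPase-activating protein, followed at 0.907, DIPK2A at 0.907, L3MBTL3 at 0.896 and GALNT3, a glycosyltransferase, at 0.885. Their differences at 24 h were -0.24, 0.11, -0.03, -0.26 and 0.23 in that order, against -0.03 for GIMAP6. The points share arrays and experiments, so these values describe 12 arrays and carry no test.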

How the data were processed

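The deposited table gives log2 expression of each probe set on 12 arrays. The submitters' processing notes name GCRMA and R 2.6 for it. By default GCRMA corrects background by probe sequence, normalizes quantiles and summarizes probes, while the authors' settings, and the arrays that went into 1 normalization, were not given in the sources used here. Quantile normalization sets a shift shared by most genes to about 0. Of 54675 probe sets, 62 controls were read separately, 41091 carried 1 symbol, 1801 several and 11721 none in the platform annotation.

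Testing was restricted to the 23265 probe sets that reached 4 on 3 or more arrays. A group-means model over all 12 arrays was fitted with limma 3.58.1 in R 4.3.3 (8 residual degrees of freedom), with Benjamini-Hochberg adjustment over all tested probe sets and a call at an adjusted p under 0.05. A gene of a list was read by its tested probe set with the highest mean. The p-values reflect the spread between 3 experiments per group on 1 cell line. With group means removed, same-numbered arrays of a time correlated at 0.238 to 0.627 (6 pairs) and others at 0.05 or less (12 pairs), so the numbers pair the samples; the fit with that block has 4 residual degrees of freedom.

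Named were all GIMAP genes, of each list the 4 members with the smallest p at 24 h and the 2 at 6 h, and the 5 genes most like the brightest GIMAP probe set. The members and lists were chosen with earlier results of these data known. Alternatives were the block, the arrays in the fit, the filter, 3 scalings, the variance model, leaving out arrays or experiment 3, and other probe sets of a gene. The limma fit without the block was run on simulated data with independent noise and added differences at 24 h. The block fit and the other steps were not tested in this way.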

Additional observations from a re-analysis of the deposited data

How the results depend on the processing

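No GIMAP member was called in any of the 4 comparisons under no filter, a filter at 6, median centring, cyclic loess, the trended variance model, or without any 1 array (0 to 0 called in each). A fit of only the arrays compared, which cannot give the difference of responses, called none in the other 3. With the replicate block, which follows the pairing of experiments, 2 of 6 were called at 24 h, and this block changed no other call of a GIMAP probe set. Counts over all probe sets moved more. At 6 h, against 1443, they were 3039 with the block, 490 with only the arrays compared, 15407 under spike scaling, 343 without experiment 3 (360 with the block) and as low as 846 without 1 array. For the difference of responses, against 5380, they were 3299 under spike scaling and 1804 without experiment 3 (3030 with the block). Between the ethanol groups, against 113, they were 4 with only the arrays compared, 190 with the filter at 6, 37 under spike scaling, 282 with the trended variance, 0 without experiment 3 and 0 to 265 without 1 array. Spike scaling called 3 of 6 at 6 h and 1 of 6 at 24 h, and put the median over all tested probe sets at -0.48 and -0.34. Leaving out experiment 3 was chosen after seeing the data.

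Signs of small differences, none called, turned as follows, and the cause was not tested. At 6 h GIMAP1 1552316_a_at was 0.0004 without experiment 3 and 0.39 on its other probe set, which was -0.0818 under spike scaling. Also at 6 h 64064_at was 0.0053 and GIMAP7 0.0275 without experiment 3, and GIMAP6 219777_at was 0.0089 under cyclic loess. At 24 h spike scaling gave -0.0573 and -0.29 for the GIMAP1 probe sets, cyclic loess -0.0085 for 1552318_at and 0.0666 for 219777_at, and 219777_at was 0.0252 without experiment 3. For the difference of responses GIMAP1 was -0.34 on 1552318_at, 219777_at was 0.0577 under cyclic loess, 0.12 under spike scaling and 0.0474 without experiment 3, and 229367_s_at stood at 0.0542 and, without experiment 3, at -0.0216. Between the ethanol groups GIMAP2 was -0.0989 and GIMAP7 -0.14 under spike scaling. No block value is given for the ethanol groups: with experiments nested within time that difference cannot be estimated.

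Without 1 array at a time, 6 h values ran from -0.24 to 0.18 (GIMAP1 1552316_a_at), -0.20 to 0.0664 (64064_at), -0.11 to 0.0566 (GIMAP6 219777_at) and -0.45 to 0.41 (GIMAP7). At 24 h they ran from -0.0869 to 0.22 (1552318_at), -0.11 to 0.11 (219777_at), -0.18 to 0.0599 (229367_s_at) and -0.73 to 0.13 (GIMAP7). The difference of responses ran from -0.36 to 0.12 (218805_at), -0.0881 to 0.13 (219777_at), -0.0909 to 0.15 (229367_s_at) and -0.76 to 0.20 (GIMAP7). Between the ethanol groups the range was -0.0549 to 0.14 for GIMAP2 and -0.37 to 0.39 for GIMAP7. The number of arrays and signal over background limit the precision: 7 member probe sets could not be read, and the interval of GIMAP7 without the block spans both directions.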
